A study of Homo sapiens with 36 samples.

Results

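The genes described here are the interleukins and the subunits of their receptors on a targeted panel. They were chosen by symbol alone, as every panel gene named IL followed by a digit, apart from 1. This gave 51 of the 2549 genes: 27 ligands, among them the receptor antagonist IL1RN, and 24 receptor subunits. The rule itself uses no measured value, though earlier results of these data were known when it was set.

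Interleukins are secreted proteins by which leukocytes and stromal cells direct each other's survival, growth and differentiation. Most act through a receptor that joins a private ligand-binding subunit to a subunit shared within a family, such as IL2RG (the common gamma chain), IL6ST (gp130) or IL1RAP. Receptors of the first kinds signal through JAK kinases and STAT factors, and those of the IL-1 family through the adaptor MYD88 and IRAK kinases. In lymphoid tissue B cells mostly receive interleukins made by helper T cells, myeloid cells and stroma, and they carry the receptors for several of them.

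The study measured 36 human B-cell lymphoma lines, untreated as far as the labels say, with 1 library per line from cell lysates. The labels give only the name of each line. The lymphoma types used here are what is generally known of each named line: 14 lines of germinal-centre B-cell-like (GCB) diffuse large B-cell lymphoma, 5 of the activated B-cell-like (ABC) kind, 9 of mantle cell lymphoma and 5 of marginal zone or hairy-cell origin. The last group joins KARPAS1718, SSK41 and VL51, of marginal zone type, with the hairy-cell lines HAIR_M and HC_1. MEC1, from chronic lymphocytic leukaemia, stood alone, and FARAGE and RCK8 were given no type. A line is 1 culture derived from 1 tumour, without the T cells and stroma that surround lymphoma cells in tissue. No line was measured again, so every test below reads the spread between lines, which may be partly technical.

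Levels are CPM (counts scaled to a common library total with TMM factors), and they are compared between lines and not between genes, whose probes may capture unequally. Libraries held 6422917 to 13451527 counts on the panel genes. A count of 0 allowed at most 0.474 CPM, and 95% exact Poisson intervals are given for some single-line values. Both cover counting error only. The B-cell markers MS4A1 (CD20), CD79A and PAX5 were counted in all lines, from 24.0, 98.8 and 64.0 CPM upwards. The 6 T-cell and natural killer markers summed to 21.3 to 729 CPM and the 7 myeloid markers to 27.0 to 759 CPM. Among the myeloid markers, CD33 reached 10 CPM in 34 lines, CD163 in 31, MPO in 21 and CSF1R in 13. ITGAM did so in 7 lines, CD14 in 5 and FCGR1A in 1. ITGAM was at 0 in 2 lines and FCGR1A in 6, and the other myeloid markers in none. The panel also holds 10 targets named ER and a number, which name no gene. They are taken here as control targets, an assumption, since the sources used here do not say what they are. MEC1 differed from the other libraries: the ER target with most counts had 424 there against a median of 10, and its summed myeloid markers were the highest. Its lowest panel gene still had 174 counts, where the median over libraries was 0.

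Nearly all of the 51 genes gave counts above these ER targets, but most at low levels. A median of 48 members per line exceeded that library's highest ER target, from 44 in TOLEDO to all 51 in GRANTA519. At 10 CPM or more stood a median of 37 members, from 15 in SUDHL6 to 51 in MEC1. At 50 CPM or more stood a median of 12, from 8 in KARPAS1718 to 42 in MEC1. Across lines, 12 members had a median of at least 50 CPM, which was 23.5% of the members against 52.5% of all panel genes. A filter of 10 CPM in 4 lines kept 47 members for tests. The other 4 were the ligands IL9, IL13, IL20 and IL22, whose highest values were 20.9, 19.1, 13.2 and 32.9 CPM, each in MEC1, and which were at 0 in 9, 8, 10 and 3 lines. In MEC1 these values stood for 459, 420, 289 and 722 counts. IL13 and IL20 thus lay under that library's highest ER target (424 counts), and IL9 little above it.

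**Figure D1:**
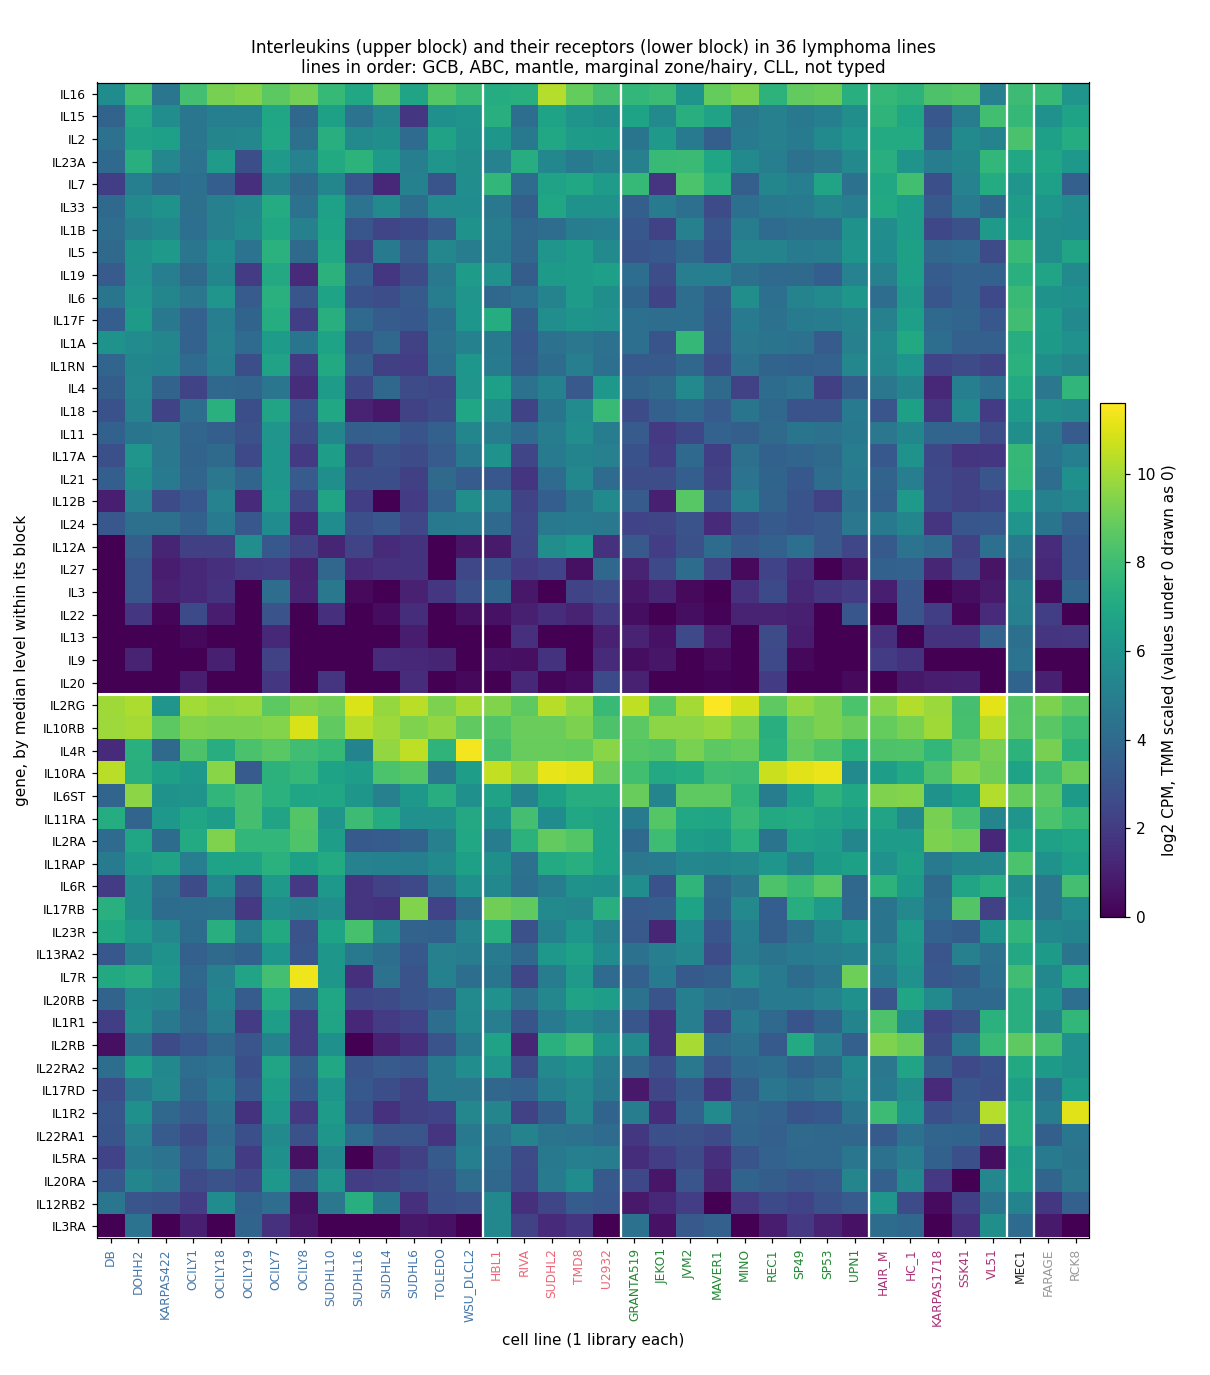
Log2 CPM of the 27 ligands (upper block) and 24 receptor subunits (lower block), rows ordered by median, in 36 lines (columns, label colour by type). IL16 was the only ligand with a median above 100 CPM; IL2RG, IL10RB, IL4R, IL10RA, IL6ST and IL11RA were the receptors above it, and the MEC1 column is high for most ligands.

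The number of members counted moved with the low-level signal of the library. As a measure of that signal, the 10th percentile of CPM over all panel genes was 27.4 in MEC1 and between 1.31 (SUDHL16) and 8.72 (OCILY7) in the other lines. MEC1 was the highest line for 22 members, or 43.1% of them, against 22.4% of all panel genes. OCILY7 was among the 3 highest lines for 20 members (39.2%, against 16.4% of all genes) and SUDHL10 for 16 (31.4%, against 17.7%). The Spearman correlation of a member's log2 CPM with the 10th percentile was at least 0.7 for 12 ligands and 4 receptors, together 34.0% of the tested members, while 17.2% of all genes tested reached it. These correlations share the library on both axes and are given as a description over 36 lines. IL17F (0.849), IL5RA (0.849), IL17A (0.809), IL19 (0.787), IL17RD (0.786), IL3 (0.785) and IL18 (0.784) followed the percentile most closely. IL16 (0.019), IL4R (-0.0051), IL10RA (0.064) and IL23A (0.069) did not follow it, and IL10RB (-0.559), IL11RA (-0.412) and IL2RG (-0.372) ran the other way. The part of this low-level signal in the levels of the genes that followed it was not tested.

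**Figure D2:**
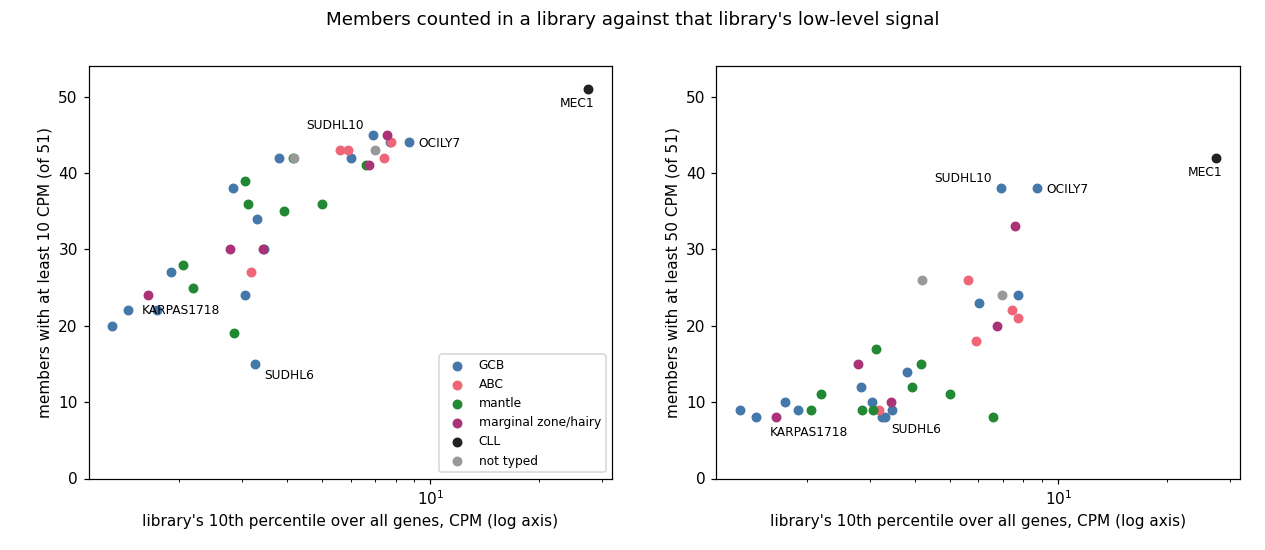
Number of the 51 members with at least 10 CPM (left) and at least 50 CPM (right) in each line, against the 10th percentile of CPM over all panel genes in the same library (log axis); each point is 1 line. MEC1 lies at 27.4 CPM with 51 and 42 members, and SUDHL6 has 15 members at 10 CPM or more.

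Of the common gamma chain family, the shared subunit IL2RG itself was present in all lines. It ran from 66.9 CPM in KARPAS422, far under the next line U2932 at 225 CPM, through a median of 817 CPM to 2974 CPM in MAVER1. IL4R, which binds IL-4 and passes its signal to STAT6, had a median of 335 CPM. It was highest in 3 GCB lines, WSU_DLCL2 at 2703 CPM (95% interval 2667 to 2739), SUDHL6 at 1439 CPM and SUDHL4 at 844 CPM. The 2 lowest lines were also GCB lines, DB at 2.40 CPM and KARPAS422 at 15.8 CPM. The 5 ABC lines lay between 286 and 750 CPM and the 9 mantle lines between 167 and 614 CPM, both within the range of the GCB lines.

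IL2RA (CD25), the alpha subunit that gives the IL-2 receptor its high affinity, had a median of 99.9 CPM. It was highest in OCILY18 (652 CPM), KARPAS1718 (644 CPM) and SSK41 (523 CPM), and lowest in VL51 (2.34 CPM). The 3 marginal zone lines thus held both a high pair and the lowest line of the series. IL2RB (CD122), the beta subunit shared by the IL-2 and IL-15 receptors, had the largest spread of all members, an SD of 2.70 log2 units over lines, at the 98.5th percentile of the genes tested. It had 1078 CPM in JVM2, 665 CPM in HAIR_M, 514 CPM in HC_1, 424 CPM in MEC1 and 295 CPM in FARAGE, against a median of 22.9 CPM. None of these 5 lines was among the 3 highest for IL2RA.

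IL7R, the alpha subunit of the IL-7 receptor, was the only member with a single-line peak, set as at least 100 CPM and 4 times the next line. OCILY8 had 2569 CPM (95% interval 2529 to 2609) and the next line, UPN1, 533 CPM, a ratio of 4.82. OCILY7 (280 CPM), MEC1 (260 CPM) and DOHH2 (149 CPM) followed, and the median was 27.8 CPM. IL13RA2, a receptor that binds IL-13 without the usual signalling tail, ran only from 6.44 CPM in MAVER1 to 128 CPM in MEC1.

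The gp130 family was represented by its shared subunit and the receptors of IL-6 and IL-11. IL6ST, the shared subunit, had a median of 120 CPM and was highest in VL51 (1220 CPM), DOHH2 (773 CPM), HC_1 (700.3 CPM) and HAIR_M (661 CPM), and lowest in DB (13.6 CPM). IL11RA, which binds IL-11, had a median of 116 CPM and was highest in KARPAS1718 (592 CPM). IL6R, which binds IL-6, had a median of 42.0 CPM, with SP53 (389 CPM), REC1 (326 CPM), RCK8 (277 CPM) and SP49 (229 CPM) at the top. Of those 4, 3 are mantle lines.

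Among IL-1 receptors, the decoy IL1R2, which binds IL-1 without signalling, had the widest range of levels. RCK8 had 2151 CPM (95% interval 2125 to 2178) and VL51 1261 CPM (1235 to 1288), followed by HAIR_M at 247 CPM and MEC1 at 145 CPM, and the median was 13.7 CPM. The signalling receptor IL1R1, which lies beside IL1R2 on chromosome 2, was highest in HAIR_M (327 CPM), RCK8 (203 CPM) and VL51 (170 CPM). The 3 highest lines were thus the same for the receptor and its decoy, in another order. IL1RAP, the accessory subunit that IL1R1 needs to signal, was more even, from 20.5 CPM in RIVA to 318 CPM in MEC1.

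The upstream sequence of 3 receptors is shown because each differed strongly between lines: IL1R2, whose 2 highest lines stood far above the rest, IL6R, which differed between mantle and GCB lines, and IL4R, which spanned 2.40 to 2703 CPM. They are the 250 bases before a transcription start in RefSeq (GRCh38.p14), 5′ to 3′ on the coding strand, which is the plus strand in all. IL1R2 has 2 such starts, at chr2:101991710-101991959 and chr2:101998711-101998960. IL6R lies at chr1:154405093-154405342 and IL4R at chr16:27313724-27313973. Capitals mark matches on either strand to any of 5 motifs: a kB motif (GGG, any 2 bases, TTTCC), a STAT motif (TTC, any 3 bases, GAA), a STAT6 motif (TTC, any 4 bases, GAA), an AP-1 motif (TGA, any base, TCA) and an interferon response motif (GAAA, any 2 bases, GAAA).
IL1R2 (first start): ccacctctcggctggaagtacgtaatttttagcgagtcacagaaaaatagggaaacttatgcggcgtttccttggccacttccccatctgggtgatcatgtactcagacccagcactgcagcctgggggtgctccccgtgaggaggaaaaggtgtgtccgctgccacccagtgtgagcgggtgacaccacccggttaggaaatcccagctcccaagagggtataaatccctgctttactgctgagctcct
IL1R2 (second start): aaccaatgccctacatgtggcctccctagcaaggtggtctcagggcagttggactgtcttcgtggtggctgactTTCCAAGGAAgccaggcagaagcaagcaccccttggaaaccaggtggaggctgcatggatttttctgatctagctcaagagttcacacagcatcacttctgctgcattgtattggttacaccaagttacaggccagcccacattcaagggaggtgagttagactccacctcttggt
IL6R: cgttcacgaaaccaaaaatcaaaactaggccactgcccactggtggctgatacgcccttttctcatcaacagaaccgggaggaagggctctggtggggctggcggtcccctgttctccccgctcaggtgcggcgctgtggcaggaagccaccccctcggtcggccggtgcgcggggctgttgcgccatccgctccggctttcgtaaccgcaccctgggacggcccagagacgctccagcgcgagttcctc
IL4R: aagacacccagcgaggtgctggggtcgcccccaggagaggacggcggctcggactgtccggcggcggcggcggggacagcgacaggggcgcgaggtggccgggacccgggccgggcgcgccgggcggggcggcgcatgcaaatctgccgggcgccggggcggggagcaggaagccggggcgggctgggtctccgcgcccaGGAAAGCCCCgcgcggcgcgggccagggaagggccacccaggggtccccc
The second IL1R2 window held a STAT6 motif that begins 176 bases before the start, and the IL4R window a kB motif that begins 50 bases before it. Bases shortly after the first IL1R2 start were found in 3 GENCODE transcripts of that gene, and those after the second in 0. For IL6R and IL4R such bases were found in 3 and 7 transcripts. The first IL1R2 window and the IL6R window held none of the 5. RefSeq windows were at hand for 42 of the 51 members, 58 windows in all since 13 genes had more than 1. The kB motif was in 4 of the 58 windows (6.90%, against 1.74% of all 34961 windows), and the STAT6 motif in 7 (12.1%, against 5.34%). AP-1 was in 9 (15.5%, against 6.54%), the STAT motif in 4 (6.90%, against 6.57%) and the interferon motif in 4 (6.90%, against 3.02%). A match is a description of these letters and no evidence of binding.

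The receptor subunits IL10RA and IL10RB differed in their spread. IL10RA, the ligand-binding subunit, had a median of 257 CPM and ran from 9.97 CPM in OCILY19 to 2441 CPM in SP53, with SUDHL2 (2329 CPM), SP49 (2141 CPM), TMD8 (2074 CPM) and REC1 (1619 CPM) next. The high lines were thus 3 mantle and 2 ABC lines. IL10RB, a subunit that several related cytokine receptors share, had the smallest spread of all members, an SD of 0.73 log2 units around a median of 625 CPM. The other receptors of that family, IL20RA, IL20RB, IL22RA1 and the secreted decoy IL22RA2, had medians of 10.1 to 26.6 CPM and were all highest in MEC1, at 95.5 to 160.0 CPM.

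IL12RB2 and IL23R, signalling subunits of the IL-12 and IL-23 receptors and neighbours on chromosome 1, were both highest in SUDHL16. IL23R had 303 CPM there and 196 CPM in MEC1, and IL12RB2 had 152 CPM there and 66.3 CPM in HAIR_M. The same line had the highest level of the natural killer marker NCAM1, 697 CPM, and that marker's relation to the 2 receptors was not tested. IL17RB, which binds IL-25, was high in lines of 3 types: SUDHL6 (676 CPM), HBL1 (543 CPM), RIVA (435 CPM) and SSK41 (366 CPM), against a median of 38.5 CPM. The remaining receptors stayed under 100 CPM in every line. IL3RA (CD123), the IL-3 receptor alpha subunit, was at 0 in 6 lines and reached 53.6 CPM in VL51, while IL5RA and IL17RD peaked in MEC1 at 90.7 and 97.0 CPM.

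Among the ligands, IL16 was the only gene with a median above 100 CPM. IL16, made as a precursor in lymphocytes and known as a ligand of CD4, had a median of 245 CPM, was highest in SUDHL2 (1258 CPM) and lowest in KARPAS422 (23.3 CPM). KARPAS422 thus had the lowest level of IL16 and of IL2RG. Of the other 26 ligands, 17 reached 100 CPM in at least 1 line and none reached 500 CPM.

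For several ligands the highest line was not MEC1. IL12B, the p40 subunit shared by IL-12 and IL-23, was at 386 CPM in JVM2 against 120 CPM in MEC1 and a median of 11.3 CPM. IL23A, the p19 subunit that joins it in IL-23, was also highest in JVM2 (242 CPM), with JEKO1 next (225 CPM). IL12A, the p35 subunit of IL-12, reached only 67.4 CPM, in TMD8. JVM2 further led for IL7 (320 CPM), the stromal survival factor of early lymphocytes, and for the pro-inflammatory IL1A (210 CPM). IL15, a survival factor for natural killer and memory T cells, was highest in VL51 (270 CPM) with MEC1 next (212 CPM). IL18, an IL-1 family ligand, was highest in U2932 (233 CPM) and OCILY18 (163 CPM). IL4, the classical helper T-cell signal to B cells, was highest in RCK8 (196 CPM) and had a median of 16.6 CPM.

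The remaining tested ligands were highest in MEC1, OCILY7 or SUDHL10. IL1B (122 CPM), the alarmin IL33 (141 CPM) and IL11 (65.2 CPM) were highest in OCILY7, and IL19 (174 CPM) in SUDHL10. IL2 (312 CPM), IL17F (267 CPM), IL5 (224 CPM), IL6 (224 CPM), IL17A (211 CPM), IL21 (204 CPM), IL1RN (170 CPM), IL24 (66.0 CPM), IL3 (35.1 CPM) and IL27 (20.7 CPM) were highest in MEC1. Medians of these 14 lay between 2.16 and 51.1 CPM. The 453 counts of IL27 in MEC1 were little above that library's highest ER target (424 counts).

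Differences between the types of lines were tested with edgeR's quasi-likelihood test, Benjamini-Hochberg adjusted over the 2406 genes tested, at 0.05. Over the 4 types together, 3 of the 47 tested members differed: IL1R2 (edgeR adjusted p = 0.00132), IL2RB (0.0212) and IL7 (0.0385). That is 6.38% of the members, where 6.28% of all genes tested were called. A further 6 members had an unadjusted edgeR p under 0.05, a threshold at which calls over all genes were not counted. As a group the interleukin genes were thus called about as often as the panel.

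Mantle lines were compared with GCB lines, and 3 members were higher in mantle lines, IL2RB, IL7 and IL6R, with none lower. Of all genes tested 4.36% were called, 2.37% as higher, and the median gene lay 0.28 log2 units lower in mantle lines. In the 14 GCB lines IL2RB ran from 0.654 CPM (SUDHL16) through a median of 7.90 to 55.9 CPM (SUDHL10), and in the 9 mantle lines from 2.96 (JEKO1) through 20.4 to 1078 CPM (JVM2). The ranges overlapped, and 7 mantle lines lay within the GCB range. The difference was 3.45 ± 0.88 log2 units (SE; edgeR adjusted p = 0.0190), and it rested on JVM2, without which it was 1.33 with an adjusted p of 0.353.

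IL7 ran from 2.27 (SUDHL4) through a median of 16.2 to 50.9 CPM (WSU_DLCL2) in GCB lines, and from 3.18 (JEKO1) through 40.1 to 320 CPM (JVM2) in mantle lines. SP53, MAVER1, GRANTA519 and JVM2, at 108 to 320 CPM, lay above all GCB lines. The difference was 2.34 ± 0.63 log2 units (edgeR adjusted p = 0.0262). It no longer passed without JVM2 (1.89, adjusted p = 0.0897) or GRANTA519 (2.12, adjusted p = 0.0616). IL6R ran from 3.27 (SUDHL16) through 12.9 to 75.0 CPM (OCILY7) in GCB lines, and from 7.45 (JEKO1) through 51.9 to 389 CPM (SP53) in mantle lines. Here JVM2, SP49, REC1 and SP53, at 192 to 389 CPM, lay above all GCB lines. The difference was 2.38 ± 0.65 log2 units (edgeR adjusted p = 0.0306), with adjusted p of 0.0513 to 0.0833 on leaving out JVM2, SP49, REC1 or SP53. Without JVM2 none of the 3 calls remained, nor with upper-quartile factors, library size alone or limma on the authors' log2 values. IL12RB2 fell short of the threshold, with a difference of -2.46 log2 units (edgeR adjusted p = 0.0568), and passed without any 1 of DOHH2, HAIR_M, KARPAS1718 or SUDHL6 (adjusted p of 0.0458 to 0.0498).

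**Figure D3:**
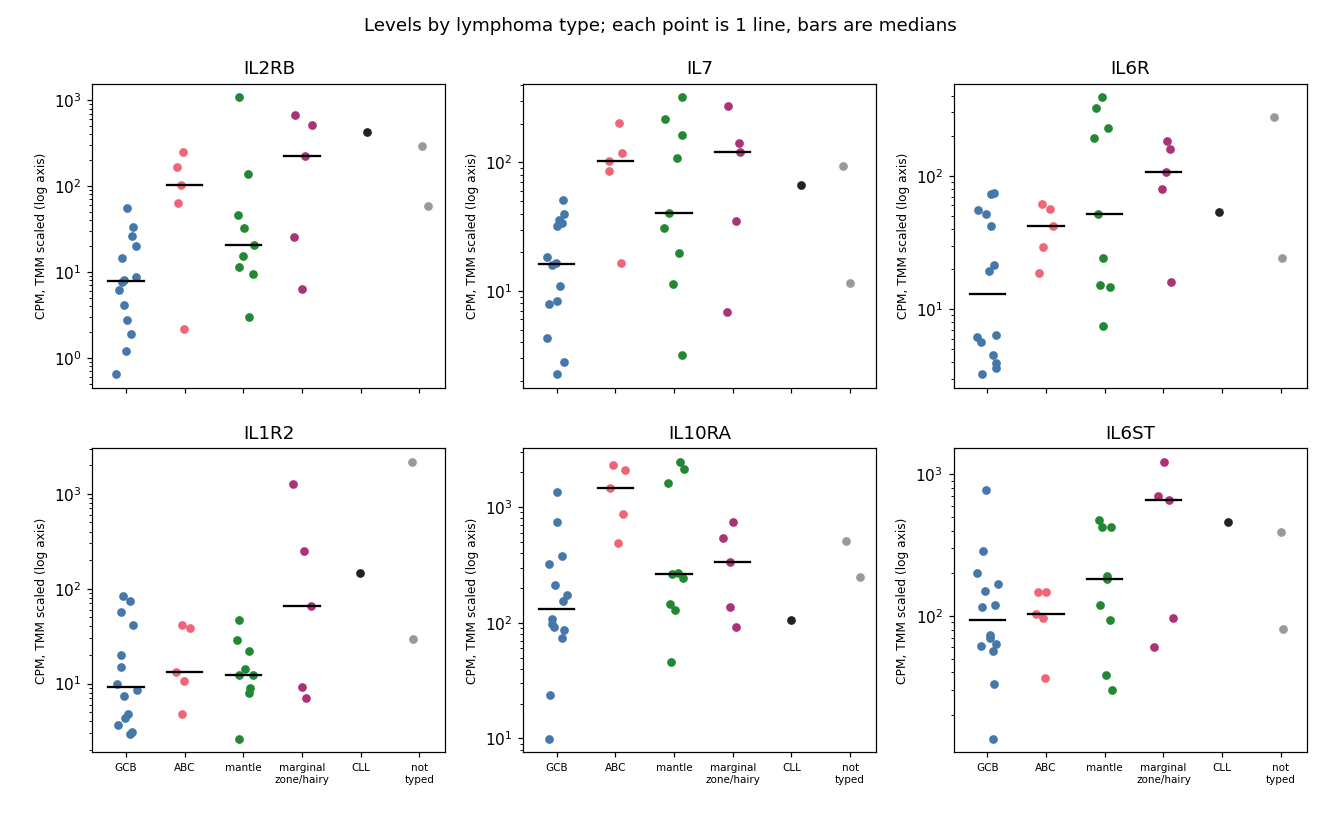
CPM of 6 members (log axes) by type, each point 1 line and each bar the median of a type. For IL2RB, IL7 and IL6R the mantle lines spread from the GCB range to above it, 3 of the 5 marginal zone or hairy-cell lines are above all GCB lines for IL2RB, and the ABC lines lie between 492 and 2329 CPM for IL10RA.

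Marginal zone and hairy-cell lines were higher than GCB lines for IL2RB, IL1R2 and IL7, and no member was lower. The share of all genes called was 3.28%, and 3.16% were called as higher. IL2RB was 6.30 CPM in KARPAS1718, 25.4 in SSK41, 226 in VL51, 514 in HC_1 and 665 in HAIR_M. The last 3 lay above every GCB line. The difference was 4.39 ± 0.98 log2 units (edgeR adjusted p = 0.00798), and it passed in all 33 fits that left out 1 line. It did not pass without both hairy-cell lines together, with 2.64 log2 units and an adjusted p of 0.268.

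IL1R2 was 6.99 CPM in KARPAS1718, 9.19 in SSK41, 66.1 in HC_1, 247 in HAIR_M and 1261 in VL51. GCB lines ran from 2.95 (SUDHL4) through a median of 9.26 to 84.2 CPM (SUDHL10), so that 2 of the 5 lay above them. The difference of 3.73 ± 0.79 log2 units (edgeR adjusted p = 0.00572) was carried by VL51, without which it was 1.78 with an adjusted p of 0.395. IL7 was 6.85 CPM in KARPAS1718, 35.1 in SSK41, 119 in HAIR_M, 140.3 in VL51 and 274 in HC_1, and the last 3 lay above every GCB line. Its difference was 2.52 ± 0.71 log2 units (edgeR adjusted p = 0.0387). That call was lost on leaving out any 1 of 12 lines, which were HC_1 (1.91, adjusted p = 0.240), HAIR_M, VL51 and the GCB lines DB, KARPAS422, OCILY1, OCILY8, OCILY18, OCILY19, SUDHL4, SUDHL16 and TOLEDO (adjusted p of 0.0516 to 0.106). It was also lost with upper-quartile factors (2.45, adjusted p = 0.0799) and library size alone (2.50, adjusted p = 0.0682). With limma on the authors' log2 values none of the 3 members passed. IL6ST was 60.0 CPM in KARPAS1718, 96.3 in SSK41, 661 in HAIR_M, 700.3 in HC_1 and 1220 in VL51, while GCB lines ran from 13.6 (DB) through 94.3 to 773 CPM (DOHH2). Its difference of 1.81 log2 units did not pass (edgeR adjusted p = 0.143) and passed without DOHH2 (2.34, adjusted p = 0.0128).

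Marginal zone and hairy-cell lines were compared with mantle lines, and IL1R2 was higher in the former by 4.20 ± 0.94 log2 units (edgeR adjusted p = 0.0216). It was the only member called, where 0.582% of all genes tested were called, all as higher. Mantle lines ran from 2.63 (JEKO1) through 12.3 to 46.9 CPM (MAVER1), below HC_1, HAIR_M and VL51. The call was lost without VL51 (2.25, adjusted p = 0.482), and narrowly without MINO, SP49 or SP53 (adjusted p of 0.0510 to 0.0571). It was also lost with upper-quartile factors, library size alone or limma. RCK8, which had the highest IL1R2 of all lines, belongs to no type and entered none of these fits.

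No member passed between ABC and GCB lines, where edgeR called 1.75% of all genes tested at the adjusted threshold. An unadjusted edgeR p under 0.05 was reached by 6 members, with no count over all genes at that threshold. DESeq2's Wald test called 3 members there, IL10RA, IL2RB and IL7, and 5.2% of all genes tested. IL10RA was 492 CPM in U2932, 869 in RIVA, 1466 in HBL1, 2074 in TMD8 and 2329 in SUDHL2. GCB lines ran from 9.97 (OCILY19) through a median of 131 to 1339 CPM (DB), and 12 of the 14 lay below all ABC lines. The difference was 2.41 ± 0.74 log2 units (edgeR adjusted p = 0.0895), and it passed without DB (2.93, adjusted p = 0.0246). For IL2RB the difference was 3.09 log2 units (edgeR adjusted p = 0.103) and for IL7 2.40 (adjusted p = 0.0746). IL2RB passed without JVM2 (adjusted p = 0.0425), and IL7 without RIVA or WSU_DLCL2 (adjusted p of 0.0476 and 0.0483). In both genes RIVA, at 2.15 and 16.6 CPM, lay within the GCB range while the other 4 ABC lines lay above it.

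No member passed in the other 2 comparisons with ABC lines. Between mantle and ABC lines edgeR called 0.374% of all genes, and DESeq2 2.2% of them but no member. Without adjustment 8 members had an edgeR p under 0.05, with no count over all genes beside it. Between marginal zone or hairy-cell and ABC lines edgeR called 0% of all genes, and DESeq2 1.33% of them with IL1R2 as the only member. Here 2 members had an unadjusted edgeR p under 0.05, again without a count over all genes. The difference for IL1R2 was 3.87 log2 units there (edgeR adjusted p = 0.283). A p that misses the threshold with 5 lines against 5 does not show that the types have like levels.

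As a set, the members were mostly lower in mantle than in ABC lines without any member being called. Only 10 of the 47 (21.3%) had a positive difference, where 45.6% of all genes tested did, with a median of -0.86 log2 units against -0.10 over all genes tested. The 10th percentile of CPM was also lower there, with a median of 3.11 in mantle and 5.90 in ABC lines. With each library's TMM factor, and not the percentile, as a covariate the members' median was -0.31 and 19 of the 47 were positive. Against mantle lines, 39 of the 47 members (83.0%) had higher values in marginal zone and hairy-cell lines, where 64.9% of all genes tested did, with a median of 0.52 against 0.20 over all genes. Comparisons that share a type share its lines, so these values are not independent of each other.

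**Figure D4:**
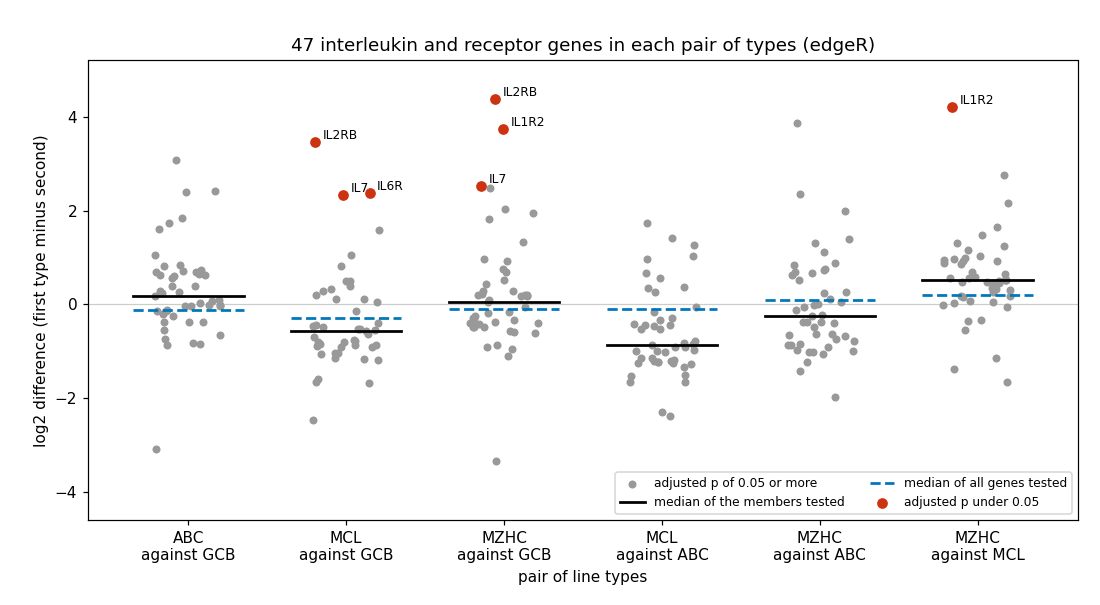
Log2 differences of the 47 tested members in the 6 pairs of types (GCB, ABC, MCL for mantle, MZHC for marginal zone and hairy-cell), with called members named. Solid bars are the medians of the members and dashed bars those of all 2406 genes tested; the members' median is -0.86 in mantle against ABC lines.

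The genes downstream of these receptors were followed in 7 lists of 47 tested genes from textbook knowledge: JAK kinases, STAT factors, feedback inhibitors, IL-1 and Toll-like receptor adaptors, receptor partners without an IL symbol, and targets of STAT6 and of STAT3 or STAT5. Over all lists, 3 were higher in ABC, 4 in mantle and 6 in marginal zone or hairy-cell lines than in GCB lines, none was lower, and none was called in the other 3 comparisons. Of all genes tested, 1.41%, 2.37% and 3.16% were called as higher and 0.333%, 2% and 0.125% as lower in those 3 comparisons with GCB lines. SOCS3, the feedback inhibitor of gp130 signalling, was called in all 3. It ran from 0.524 through a median of 3.08 to 7.26 CPM in GCB lines, and had medians of 50.2 CPM in ABC, 7.47 CPM in mantle and 27.9 CPM in marginal zone or hairy-cell lines. All 5 ABC lines, from 11.0 CPM in RIVA, lay above all GCB lines. Of the 9 mantle lines, UPN1, MINO, JEKO1 and GRANTA519 (1.48 to 4.76 CPM) lay within the GCB range, MAVER1 (7.47 CPM) and REC1 (9.36 CPM) just above it, and SP53 (76.9 CPM), JVM2 (218 CPM) and SP49 (505 CPM) far above. The differences from GCB lines were 4.53 ± 0.85, 4.95 ± 0.81 and 3.37 ± 0.84 log2 units (edgeR adjusted p = 0.00213, 0.000257 and 0.0152). The mantle difference fell to 3.77 without SP49 (adjusted p = 0.00178) and to 2.75 with limma (adjusted p = 0.0493). The marginal zone or hairy-cell call was lost without HAIR_M (3.29, adjusted p = 0.0503) or VL51 (3.00, adjusted p = 0.0821). It was also lost without both hairy-cell lines (3.31, edgeR adjusted p = 0.0911) and with limma (3.11, adjusted p = 0.149).

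STAT3, the factor activated by gp130 receptors, was also higher in ABC than in GCB lines, by 1.98 ± 0.45 log2 units (edgeR adjusted p = 0.0131). Its median was 553 CPM against 236 CPM. The kinase PIM2, a target of STAT3 and STAT5, was higher by 2.51 ± 0.55 log2 units (edgeR adjusted p = 0.0103). Both calls were lost without SUDHL2, with an adjusted p of 0.171 for STAT3 and of 0.101 for PIM2. Neither passed with limma (adjusted p = 0.190 for STAT3 and 0.0542 for PIM2). STAT3 was also lost without TMD8 (1.62, adjusted p = 0.107).

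Of 4 targets of IL-4 and STAT6, the chemokine CCL22 and the low-affinity IgE receptor FCER2 (CD23) were higher than in GCB lines both in mantle and in marginal zone or hairy-cell lines. CCL22 had medians of 20.2 CPM in GCB, 713 CPM in mantle and 2395 CPM in marginal zone or hairy-cell lines, and its differences from GCB lines were 4.84 ± 0.92 and 6.47 ± 1.03 log2 units (edgeR adjusted p = 0.00141 and 0.00045). The mantle difference was 3.27 without JVM2, which had 12843 CPM, and 6.01 without the highest GCB line, DOHH2 (588 CPM). The other was 5.74 without HAIR_M and 7.65 without DOHH2, and all 4 passed (edgeR adjusted p of 9.6e-06 to 0.0184). FCER2 differed by 3.86 ± 0.95 and 5.11 ± 1.06 log2 units (edgeR adjusted p = 0.0162 and 0.00507), and without GRANTA519 its mantle call was lost (2.82, adjusted p = 0.0762). With limma neither FCER2 difference passed (adjusted p = 0.0765 and 0.0947). IL4R itself passed in no pair of types, and IL4 had a median of 16.6 CPM over all lines.

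IRAK3, an inhibitory kinase of IL-1 receptor signalling, was higher than in GCB lines in mantle lines, by 1.97 ± 0.55 log2 units (edgeR adjusted p = 0.0347), and in marginal zone or hairy-cell lines, by 2.67 ± 0.62 (edgeR adjusted p = 0.00946). The first call was lost without any 1 of MINO, JVM2, MAVER1 or OCILY8, with adjusted p up to 0.102, and the second without KARPAS1718 (1.71, adjusted p = 0.158). CRLF2, the receptor of thymic stromal lymphopoietin, which pairs with IL7R, and STAT5A, which common gamma chain receptors activate, were higher in marginal zone or hairy-cell lines. Their differences were 3.17 ± 0.83 log2 units (edgeR adjusted p = 0.0241) and 3.07 ± 0.87 (edgeR adjusted p = 0.0422). Without VL51 neither passed (2.57, adjusted p = 0.172, and 2.59, adjusted p = 0.215), nor without HAIR_M (2.95, adjusted p = 0.0898, and 2.60, adjusted p = 0.214). STAT5A was also lost without any 1 of TMD8 and the GCB lines OCILY1, OCILY7, OCILY8, OCILY18, OCILY19, SUDHL4, SUDHL6, SUDHL16, TOLEDO and WSU_DLCL2 (adjusted p up to 0.0684). With upper-quartile factors, library size alone or limma, both IRAK3 calls and those of CRLF2 and STAT5A were lost.

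Whether a ligand and its receptor, or the subunits of a receptor, had high levels in the same lines was asked of 30 listed pairs, of which 19 could be computed over 36 lines. Only 3 pairs passed, all within the IL-1 family and all positive. IL1B and its antagonist IL1RN had a Pearson r of 0.75 (permutation p = 1e-05, the smallest 100000 resamples can give; adjusted p = 0.00019) and a Spearman rho of 0.73 (adjusted p = 9.5e-05). With the 2 most extreme lines for IL1B left out, r was 0.74. IL1A and IL1B, neighbouring genes on chromosome 2, had an r of 0.72 (permutation p = 2e-05, adjusted p = 0.00019) and a rho of 0.73 (adjusted p = 9.5e-05), and r was 0.74 without 2 lines. IL1R1 and its accessory subunit IL1RAP had an r of 0.59 (permutation p = 0.00014, adjusted p = 0.000887) and a rho of 0.58 (adjusted p = 0.0019), and r was 0.64 without 2 lines.

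The 5 genes of these pairs also moved with the 10th percentile of the library, with Spearman correlations of 0.559 (IL1A), 0.570 (IL1B), 0.764 (IL1RN), 0.747 (IL1R1) and 0.622 (IL1RAP). The percentile itself was not taken out of these genes. With the TMM factor, another property of the library, taken out of both genes by regression, 2 pairs still passed. Their r was 0.59 for IL1B with IL1RN and 0.59 for IL1A with IL1B. For IL1R1 with IL1RAP it was 0.27 (permutation, adjusted p = 0.199) and the pair no longer passed.

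**Figure D5:**
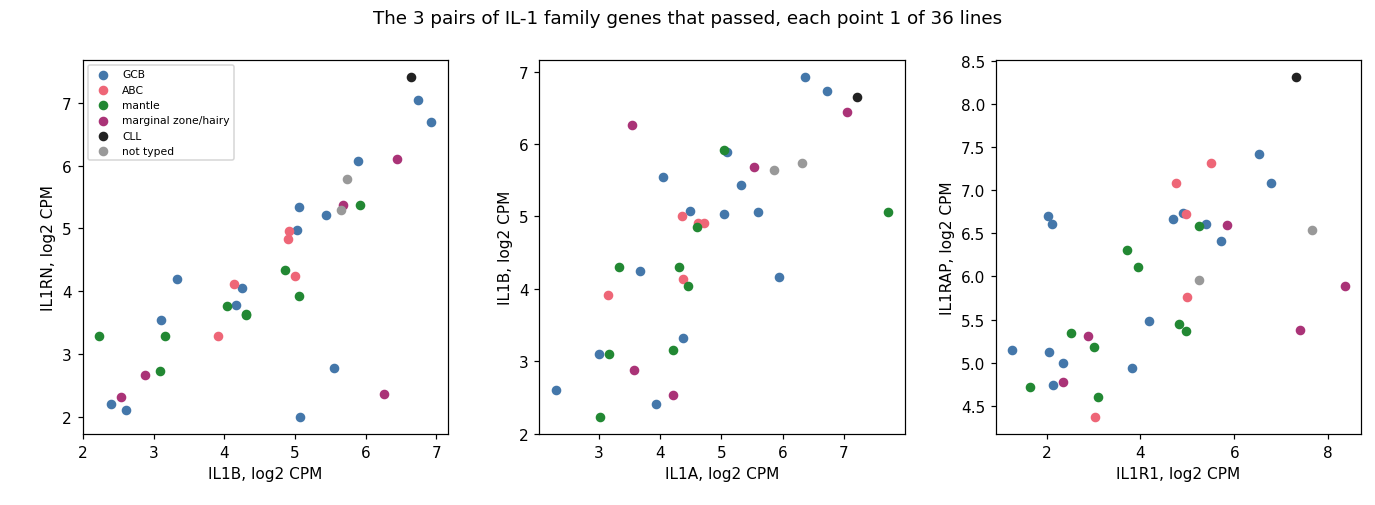
Log2 CPM of the 3 pairs that passed, each point 1 of 36 lines coloured by type. IL1B and IL1RN rise together over lines (r = 0.75), with IL1RN low in OCILY8 (3.79 CPM) and VL51 (4.98 CPM) at 33.5 and 76.7 CPM of IL1B; IL1A with IL1B has r = 0.72 and IL1R1 with IL1RAP r = 0.59.

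The other 16 pairs did not pass. IL6 and IL6R had an r of 0.40 (permutation p = 0.0157, adjusted p = 0.0746), IL6R and IL6ST 0.39 (permutation p = 0.0203, adjusted p = 0.0771), and IL4R and its target FCER2 0.36 (permutation p = 0.0285, adjusted p = 0.0902). The correlations of IL7 with IL7R (-0.15, permutation p = 0.389), IL2RA with IL2RB (0.15, permutation p = 0.370) and IL10RA with IL10RB (-0.22, permutation p = 0.201) had adjusted p of at least 0.382. IL6 and SOCS3 had an r of 0.09 (permutation p = 0.587, adjusted p = 0.620). Scaled by library size alone, 10 pairs passed, among them the same 3.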

How the data were processed

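RNA of 36 lymphoma lines was measured by targeted RNA-Seq on a fixed panel. The authors deposited whole-number counts per target, with no scaling, and a table of log2 values that equal the log2 of the count over a library factor, plus 1, within 0.00979. Per the submitters' processing notes the build is hg38. How reads were aligned and counted, and whether by strand, is not given in the sources used here. Targets named ER and a number, 10 in all, name no gene and were kept out of library sizes and tests. Symbols were matched to GENCODE release 29 for all 51 members. A further gene with an IL symbol is not reported here.

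TMM factors from all 36 libraries (edgeR 4.0.16) turned the counts into CPM, and a prior count of 2 was added for log2 CPM. The 2406 genes, of 2549, that reached 10 CPM in 4 or more lines were tested. A quasi-likelihood fit over the 33 lines of 4 types gave the 6 pairs of types and the F-test over types. A call is an adjusted p under 0.05, and the SE is the difference divided by the square root of F. Correlations used two-sided permutation tests with 100000 resamples, adjusted over 19 pairs. A pair passed where r and rho both had an adjusted p under 0.05. Of the 30 listed pairs, 11 had a gene that was not on the panel or did not pass the filter. The fits were also run on simulated counts in which all lines of a type shared the same mean for a gene. Single lines standing apart, on which several calls rest, were not built into that simulation.

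Members were named where called in a pair of types, at 100 CPM or more in a line, with a single-line peak, among the 12 largest SDs, or in a computed pair; the others are given by their highest level so that each is accounted for. Of the called pathway genes, up to 3 per list and pair of types were named. The members, lists, pairs and line types were chosen with earlier results of these data known. Alternatives were DESeq2 1.42.0 size factors and Wald test, upper-quartile factors, library size alone, limma 3.58.1 on the authors' log2 values, no filter or one of 50 CPM, the TMM factor as a covariate, other thresholds for background, and leaving out lines. Leaving out the 3 typed libraries with the highest 10th percentile (OCILY7, HBL1, DOHH2), the percentile thresholds for background and the alternatives for spread were added after seeing the data.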

Additional observations from a re-analysis of the deposited data

Results flagged for a closer look

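In 141 groups, a member's 5 to 9 lines of 1 type, the highest or lowest line was set against the others by Dixon's ratio on the log2 CPM scale, and 10 were set apart. Chance alone sets apart about 1 in 20 such groups. No explanation was tested for any of them.

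Among ABC lines it was RIVA each time. RIVA had the lowest IL19 (10.7 CPM, next HBL1 at 58.2 CPM), the lowest IL1A (8.69 CPM, next U2932 at 20.4 CPM) and the highest IL23A (149.9 CPM, next SUDHL2 at 43.0 CPM). Among mantle lines JVM2 stood apart with the highest IL12B (386 CPM, next MINO at 28.7 CPM) and the highest IL1A (210.1 CPM, next UPN1 at 32.7 CPM). UPN1 had the highest IL7R (533 CPM, next MINO at 43.9 CPM). REC1 had the lowest IL10RB (155 CPM) and GRANTA519 the next lowest (407 CPM), while MAVER1 had the lowest IL13RA2 (6.44 CPM, next GRANTA519 at 20.4 CPM). Of the marginal zone lines, VL51 had the lowest IL16 (32.5 CPM, next HC_1 at 181 CPM) and KARPAS1718 the lowest IL4 (2.33 CPM, next VL51 at 18.9 CPM).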

How the results depend on the processing

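With 1 library a line, the lines limit precision more than depth. No called result named here changed direction under an alternative. Members called over the 4 types numbered 3, and 1 with library size alone, 7 with DESeq2, 0 with limma, 6 with the TMM factor as a covariate and 1 without HAIR_M and HC_1. In ABC against GCB lines 0 became 1 with upper-quartile factors, 1 with library size alone and 3 with DESeq2. In mantle against GCB lines 3 became 0 with upper-quartile factors, 0 with library size alone, 5 with DESeq2, 0 with limma, 6 with the covariate and 0 without GRANTA519 and JVM2. In marginal zone or hairy-cell against GCB lines 3 became 0 with limma, 5 with the covariate and 1 without HAIR_M and HC_1. Against ABC lines 0 became 1 with DESeq2, and against mantle lines 1 became 0 with upper-quartile factors, 0 with library size alone, 2 with DESeq2, 0 with limma and 2 with the covariate. The cause was not tested. Leaving out 1 line in turn gave 1 (VL51) to 5 (DB or UPN1) members over the 4 types. It gave 0 to 1 for ABC against GCB (1 without DB, JVM2, OCILY19, RIVA or WSU_DLCL2), 0 (JVM2) to 4 for mantle against GCB, 1 (VL51) to 4 for marginal zone or hairy-cell against GCB, and 0 to 1 against mantle lines. Both other pairs kept 0 calls in all 33 such fits. Of pathway genes, the 3 of ABC against GCB became 5 with DESeq2, 1 with limma and 1 to 3 on leaving out a line (1 without SUDHL2). The 4 of mantle against GCB became 2 with limma, 2 without GRANTA519 and JVM2, and 3 to 6 on leaving out a line. The 6 of marginal zone or hairy-cell against GCB became 3 with upper-quartile factors, 3 with library size alone, 1 with limma and 3 without HAIR_M and HC_1. Leaving out a line gave 3 (HAIR_M or VL51) to 10 (DOHH2) there, and 0 to 1 against mantle lines (1 without JVM2). In mantle and in marginal zone or hairy-cell against ABC lines, 0 became 2 and 2 with DESeq2, and stayed 0 on leaving out a line. The median of 48 members above background became 37 at 10 CPM, 12 at 50 CPM, 46 at more than 2 times the highest ER target, 44 above the 10th and 34 above the 25th percentile of all genes. The 3 pairs that passed became 10 with library size alone. Calls over all genes also moved: in mantle against GCB lines 4.36% became 8.81% with DESeq2, 7.56% with the covariate and 2.78% with limma. Over the 4 types 6.28% became 11.3% with DESeq2, 7.94% with the covariate and 2.12% with limma. In ABC against GCB lines 1.75% became 5.2% with DESeq2. For marginal zone or hairy-cell lines DESeq2 called 1.33% against ABC and 1.33% against mantle lines. Replicate numbers only name the lines, and no paired analysis was possible because the labels give no numbers that lines of different types share.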

Other observations

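Some lines combined high and low extremes of this gene set. VL51 was among the 3 highest lines for 9 members (17.6%, against 12.3% of all panel genes): IL1R1, IL1R2, IL2RG, IL3RA, IL6ST, IL10RB, IL13, IL15 and IL23A. The same line had the lowest IL2RA of all lines, 2.34 CPM. OCILY8 led for IL7R (2569 CPM) and IL10RB (1931 CPM) and was the lowest line for IL1RN (3.79 CPM), IL19 (2.53 CPM), IL17F (4.27 CPM) and IL24 (2.37 CPM). JVM2 was among the 3 highest lines for 6 members (11.8%, against 6.63% of all panel genes): IL1A, IL2RB, IL7, IL12B, IL23A and IL27. The untyped RCK8 led for IL1R2 (2151 CPM) and IL4 (196 CPM) and was second for IL1R1 (203 CPM). These lines were picked after their values were seen.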
